A study of Mus musculus with 6 samples.

Results

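Mitochondrial protein import was followed through 33 genes of the gastrocnemius, a largely fast-fibred muscle of the calf, in aged wild-type mice. The genes were taken by symbol: every Tomm and Timm gene with a number, Timmdc1, and 7 matrix partners (the chaperones Hspa9, Hspd1 and Hspe1, the processing peptidase subunits Pmpca and Pmpcb, and the proteases Lonp1 and Clpp), 33 of 23238 symbols in all. The farnesol group (3 libraries) came from C57/BL6J WT mice aged 26 months that were given farnesol, a sesquiterpene alcohol, by mouth at 350 mg/kg for 30 days. The vehicle group (3 libraries) had the same strain, genotype, age and duration and received 5% DMSO in saline. The title of the study places farnesol upstream of farnesylation of PARIS, a repressor of the mitochondrial regulator PGC-1α, and the groups were compared to ask how muscle transcripts differ after feeding. The labels name the libraries biological replicates and do not tie each to its own mouse, so the spread behind every p-value is that among libraries and may be partly technical.

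Nearly all mitochondrial proteins are made in the cytosol and carried into the organelle by these machines. The TOM complex of the outer membrane holds the receptors and the general entry channel. Behind it, small TIM chaperones escort hydrophobic proteins across the intermembrane space, the TIM22 complex inserts carriers into the inner membrane, and the TIM23 complex passes presequence proteins into the matrix, pulled by a motor built on the matrix Hsp70. In the matrix the presequence is cut off, chaperonin folds the protein, and proteases remove what fails to fold. Skeletal muscle, rich in mitochondria, depends on this route, and the import channel is also the place where PINK1 is held when mitochondria are damaged, the signal that recruits Parkin.

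Of the 33 import genes 31 had enough counts to be tested, and 25 of these 31 stood higher in farnesol muscle. Their median log2 fold change was 0.21, a median fold of 1.16, where all 11674 genes tested had a median of −0.01 and 49.1% stood above 0. In edgeR, adjusted over the whole table, 0 of 31 import genes and 0 of 11674 genes (0%) passed a threshold of 0.05, and the smallest adjusted p of an import gene was 0.99999. At an unadjusted p under 0.05 there were 2 import genes of 31, both higher, against 3.01% of all genes (1.75% higher and 1.26% lower). These were Tomm7 and Tomm70a, both of the TOM complex. DESeq2 and limma-voom also passed 0 import genes, and each had 1 at an unadjusted p under 0.05. In 5 of the 31 genes (Tomm7, Tomm20, Tomm34, Timm8b and Timm23) all farnesol libraries lay above all vehicle libraries, and in 0 genes below, where such separation was found in 8.82% of all genes, 4.75% with farnesol higher and 4.07% with farnesol lower.

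The libraries held 9895700 to 12707751 counts each. Values are in CPM, computed on library sizes scaled by edgeR's TMM factors, which ran from 0.905 to 1.14. The 10 skeletal muscle markers were present in all libraries, at a summed level of 129490 to 139100 CPM in farnesol and 101180 to 149540 CPM in vehicle libraries, with the lowest value in vehicle replicate 3. Farnesol replicate 1 stood apart. The 45S ribosomal precursor Rn45s took 4.97% of its counts, against 9.92% to 15.4% in the other 5 libraries, and its deviations from the mean correlated with transcript length across genes at a Spearman coefficient of −0.24, against 0.02 to 0.10 in the others. It was the highest library for 12 of the 31 import genes (38.7%), where it was highest for 17.7% of all genes tested. Without it the median log2 fold change of the import genes was 0.13, with 23 of 31 higher. With a trend on transcript length removed from each library the median was 0.15. In whole muscle, fewer cells of a type and less RNA per cell cannot be told apart.

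**Figure D1:**
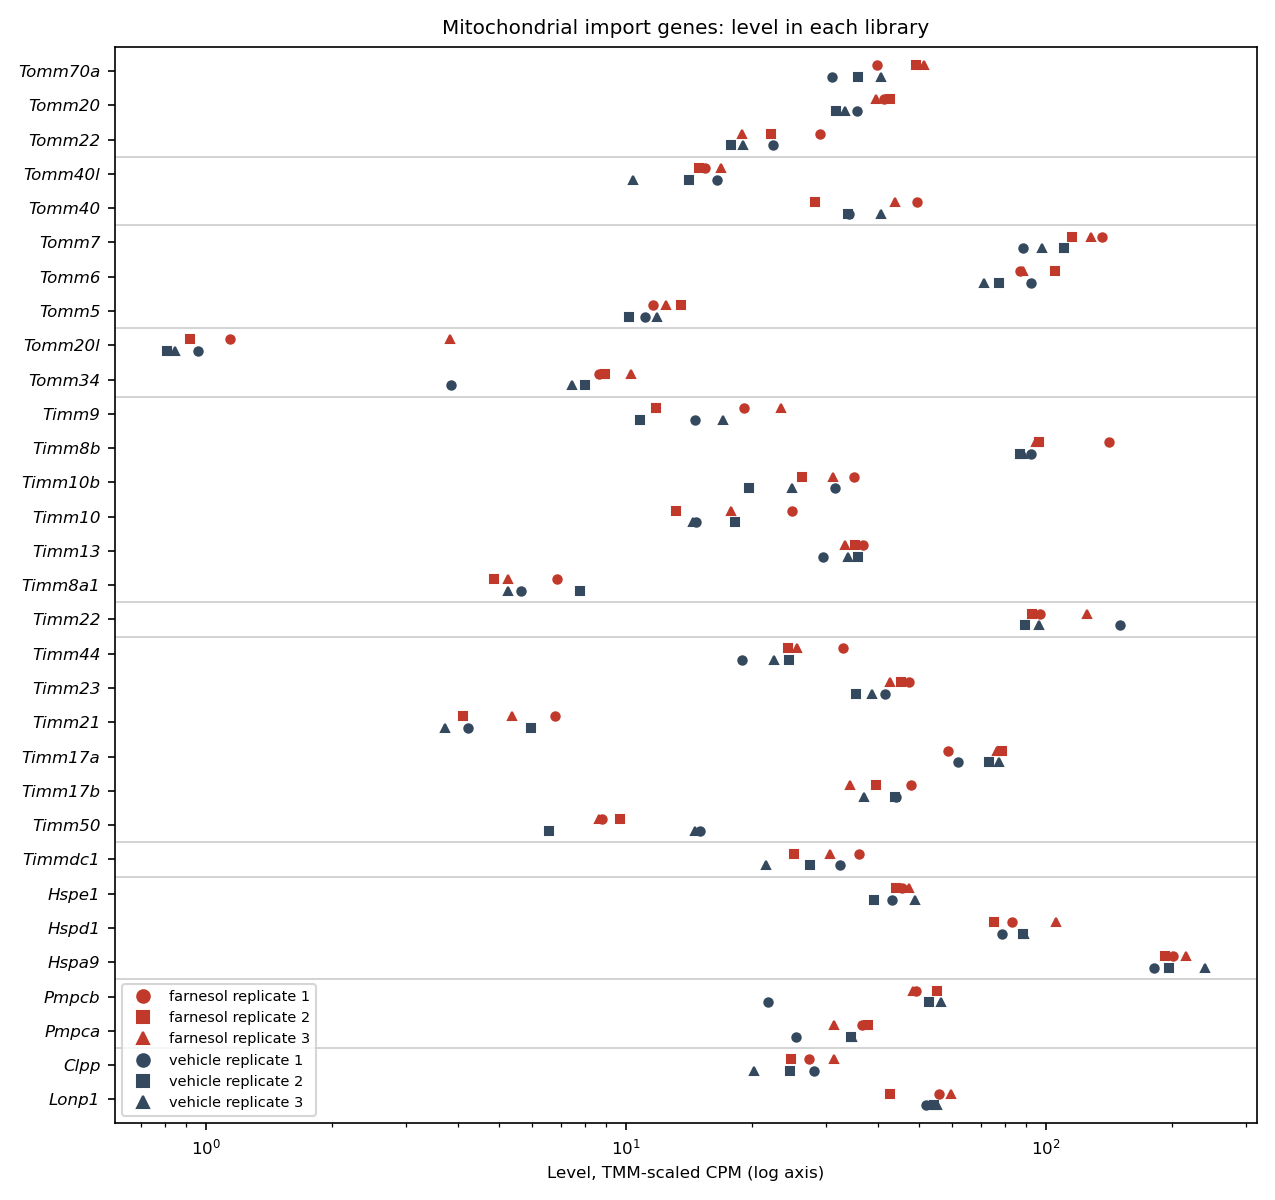
Level of each tested import gene in the 6 libraries, in TMM-scaled CPM on a log axis; red marks are farnesol, dark marks vehicle, and shapes are replicates 1 to 3. Genes are grouped by role from the TOM receptors at the top to the matrix proteases at the bottom, and the groups overlap in 26 of the 31 genes.

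The 8 genes of the TOM complex all stood higher in farnesol muscle, with log2 fold changes from 0.16 to 0.39 and a median of 0.23 (1.17-fold). The mean deviation of these 8 genes from their 6-library means was 0.17, 0.09 and 0.13 log2 units in farnesol replicates 1, 2 and 3, against −0.08, −0.15 and −0.14 in vehicle replicates 1, 2 and 3. The 3 farnesol libraries thus lay above the 3 vehicle libraries as a group mean, although 2 of the 8 genes taken singly did. Separation of the group mean was not particular to the TOM genes. It was also seen in the complex I subunits, the mitochondrial ribosomal proteins and the other import genes listed below. The median of the 8 TOM genes stayed between 0.21 and 0.31 with each library left out in turn, and was 0.25 without farnesol replicate 1.

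Tomm70a, the receptor that takes carrier precursors from cytosolic chaperones (chromosome 16, 57121714 to 57154530, mm10), stood at 39.8, 49.1 and 51.3 CPM in farnesol replicates 1, 2 and 3, against 31.0, 35.7 and 40.5 CPM in vehicle replicates 1, 2 and 3. The lowest farnesol library lay just under the highest vehicle library. The fold was 1.31 (95% interval 1.005 to 1.70, edgeR), with an unadjusted p of 0.0459. The unadjusted edgeR p was 0.165, 0.0812 and 0.0254 without vehicle replicates 1, 2 and 3 in turn. It was 0.0188, 0.117 and 0.147 without farnesol replicates 1, 2 and 3 in turn. With all libraries it was 0.0502 in DESeq2, 0.0509 in limma-voom and 0.0220 in edgeR with the length trend removed. An exon of Tomm70a overlaps Nit2 on the opposite strand, and counts of overlapping genes cannot be told apart here.

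Tomm20, which binds the presequences of most matrix proteins (chromosome 8, 126930664 to 126945921), was measured at 41.3, 42.6 and 39.4 CPM in farnesol libraries, against 35.5, 31.6 and 33.3 CPM in vehicle libraries. The groups did not overlap, and the libraries of each group lay close together. Its fold of 1.23 (0.952 to 1.58) had an unadjusted edgeR p of 0.109. Tomm22, the receptor that also organises the complex, was at 29.0, 22.2 and 19.0 CPM in farnesol and 22.4, 17.8 and 19.0 CPM in vehicle libraries, with farnesol replicate 1 above the rest. The log2 fold change of Tomm22 was 0.25 (SE 0.22), and 0.06 without that library.

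Tomm40, the β-barrel that forms the entry channel, stood at 49.4, 28.3 and 43.8 CPM in farnesol libraries and 34.1, 33.9 and 40.5 CPM in vehicle libraries. Farnesol replicate 2 was the lowest of all 6, so the groups overlapped, and the log2 fold change of 0.16 (SE 0.20) became −0.01 without farnesol replicate 1. The paralogous channel Tomm40l was at 15.5, 15.0 and 16.9 CPM in farnesol and 16.5, 14.1 and 10.4 CPM in vehicle libraries (log2 fold change 0.21, SE 0.25). Tomm40l made up 28.8% ± 5.43 of the counts of both channel genes in farnesol and 27.5% ± 6.31 in vehicle libraries (SD, n = 3 each), a difference of 1.29 percentage points within the spread of either group (exact two-sided permutation p = 0.8, adjusted 0.9 over 4 such ratios; the smallest p this design allows is 0.1).

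Tomm7, a small subunit that tunes the assembly of the complex (chromosome 5, 23838944 to 23844145), stood at 136, 115 and 129 CPM in farnesol libraries, against 88.3, 110.4 and 98.2 CPM in vehicle libraries. All 3 farnesol values lay above all 3 vehicle values. The fold was 1.28 (1.03 to 1.60), with an unadjusted edgeR p of 0.0307. Leaving out vehicle replicate 1, the lowest library, gave a log2 fold change of 0.28 in place of 0.36, with an unadjusted edgeR p of 0.126. That p was 0.0202 and 0.0566 without vehicle replicates 2 and 3 in turn. It was 0.0751, 0.0274 and 0.0707 without farnesol replicates 1, 2 and 3 in turn. With a length trend removed from each library the log2 fold change was 0.28, with an unadjusted edgeR p of 0.0729. Tomm6 was at 87.0, 105 and 88.3 CPM in farnesol and 92.4, 77.5 and 71.2 CPM in vehicle libraries (log2 fold change 0.22, SE 0.16), and Tomm5 at 11.6, 13.5 and 12.5 against 11.1, 10.2 and 11.8 CPM (0.18, SE 0.25). In each of the 2 genes 1 vehicle library reached above the lowest farnesol library, so the groups overlapped.

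Among the remaining Tomm-named genes, Tomm34, a cytosolic co-chaperone of precursors, stood at 8.63, 8.94 and 10.3 CPM in farnesol libraries, against 3.83, 7.98 and 7.45 CPM in vehicle libraries. The groups did not overlap, but vehicle replicate 1 lay far below the other vehicle libraries, and the log2 fold change of 0.53 (a fold of 1.44, 0.901 to 2.32) was 0.27 without it. Tomm20l had 13, 11 and 37 counts in farnesol and 10, 8 and 10 counts in vehicle libraries. Its log2 fold change of 1.15 (SE 0.77) rested on farnesol replicate 3 and was 0.24 without it. Tomm6os, an antisense gene that shares exon bases with Tomm6, was listed at 0 counts in all 6 libraries, which allows up to 3 counts in each.

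**Figure D2:**
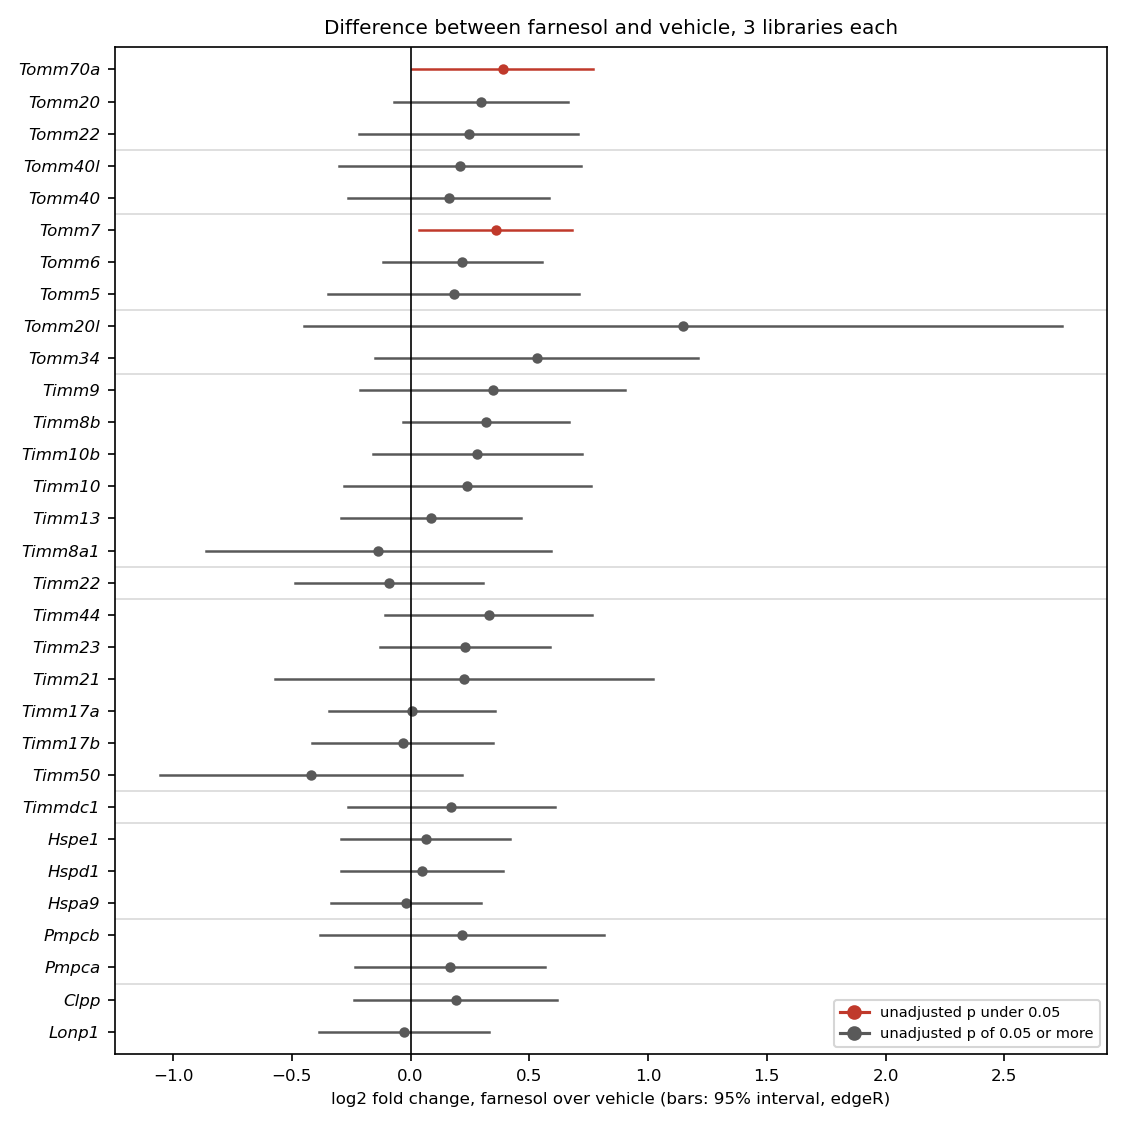
Log2 fold change of each tested import gene, farnesol over vehicle, with 95% intervals from edgeR's quasi-likelihood fit on 3 libraries per group; red marks the genes with an unadjusted p under 0.05. The 8 TOM complex genes lie right of 0, the interval of 2 of them (Tomm70a and Tomm7) leaves out 0, and the matrix chaperones lie near 0.

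The 6 tested small TIM chaperones had a median log2 fold change of 0.26, with 5 higher and 1 lower. Timm8b, a partner of Timm13 in the chaperone hexamer (chromosome 9, 50603901 to 50605320), stood at 141, 96.7 and 95.02 CPM in farnesol libraries and 92.1, 86.9 and 88.2 CPM in vehicle libraries. The groups did not overlap, and farnesol replicate 1 was far above the other 5. The fold of 1.25 (0.977 to 1.59) had an unadjusted edgeR p of 0.0740. Its log2 fold change of 0.32 was 0.11 without farnesol replicate 1 and 0.16 with the length trend removed.

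Timm8a1, the mouse counterpart of the human gene mutated in deafness-dystonia syndrome, was at 6.87, 4.85 and 5.26 CPM in farnesol and 5.65, 7.78 and 5.25 CPM in vehicle libraries (log2 fold change −0.14, SE 0.35). Its share of the counts of Timm8a1 and Timm8b together was 4.63%, 4.77% and 5.24% in farnesol libraries, against 5.78%, 8.22% and 5.62% in vehicle libraries. Each farnesol share lay below each vehicle share, by 1.65 percentage points in the means (exact two-sided permutation p = 0.1, the smallest this design allows; adjusted 0.4 over 4 ratios), and by 0.81 points without vehicle replicate 2. Timm8a2 held 1, 0 and 0 counts in farnesol and 0, 2 and 0 counts in vehicle libraries and was not tested.

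Timm9 and Timm10, which build the other chaperone hexamer, both overlapped between the groups. Timm9 was at 19.1, 11.8 and 23.4 CPM in farnesol and 14.6, 10.8 and 17.1 CPM in vehicle libraries (log2 fold change 0.35, SE 0.27; 0.12 without farnesol replicate 3). Its 3′ end overlaps that of Tomm20l, on the opposite strand, by 51 annotated bases, so the counted ends of the 2 genes meet there and their counts cannot be told apart with certainty. Both genes were highest in farnesol replicate 3. Timm10 was at 24.9, 13.2 and 17.8 CPM in farnesol and 14.7, 18.2 and 14.5 CPM in vehicle libraries (0.24, SE 0.25; −0.03 without farnesol replicate 1). Timm10b, the member attached to the TIM22 complex, had a log2 fold change of 0.28 (SE 0.21) and Timm13 of 0.09 (SE 0.18).

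In the inner membrane the values were mixed. Of 6 genes tested in the TIM23 complex and motor, 4 were higher and 2 lower (median log2 fold change 0.12). Timm22, of the TIM22 complex, was lower (−0.09). Pooling these with the 6 small TIM chaperones of the intermembrane space gave 13 tested genes. Of the 13, 9 were higher and 4 lower, and their median was 0.23. That median was 0.05 without farnesol replicate 1, which was the highest library for 8 of the 13, and 0.11 with the length trend removed. Timm23, the channel subunit of the presequence translocase (chromosome 14, 32180166 to 32201891), stood at 47.2, 45.2 and 42.7 CPM in farnesol libraries, against 41.4, 35.4 and 38.5 CPM in vehicle libraries. The groups were separate by a small gap, with a fold of 1.17 (0.914 to 1.503) and an unadjusted edgeR p of 0.199.

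The alternative Timm23 partners Timm17a and Timm17b had folds near 1. Timm17a was at 58.6, 78.6 and 76.5 CPM in farnesol and 61.8, 73.4 and 77.4 CPM in vehicle libraries, a fold of 1.005 (0.789 to 1.28). Timm17b was at 47.9, 39.5 and 34.2 CPM in farnesol and 43.9, 43.8 and 36.9 CPM in vehicle libraries, a fold of 0.977 (0.750 to 1.27). Both intervals leave room for differences of about the size seen in the TOM genes. Timm17b made up 36.4% ± 7.48 of the pair's counts in farnesol and 37.1% ± 4.63 in vehicle libraries (SD, n = 3 each; exact two-sided permutation p = 0.9, adjusted 0.9). Farnesol replicate 1 had the highest share, 44.96%, against 33.5% and 30.9% in the other farnesol libraries.

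Timm50, the receptor that holds presequences at the translocase, was the import gene with the lowest log2 fold change, −0.42 (SE 0.31). It stood at 8.80, 9.70 and 8.66 CPM in farnesol libraries, against 15.0, 6.57 and 14.6 CPM in vehicle libraries. The farnesol libraries lay close together between the vehicle values. The log2 fold change was −0.71 without vehicle replicate 2, −0.23 without vehicle replicate 1 and −0.26 without vehicle replicate 3. Timm44, the anchor of the import motor, had 32.9, 24.4 and 25.6 CPM in farnesol and 19.0, 24.5 and 22.6 CPM in vehicle libraries (log2 fold change 0.33, SE 0.21), and Timm21, which couples the translocase to TOM and the respiratory chain, a log2 fold change of 0.23 (SE 0.38) from 44 to 77 counts per library, and 0.03 without farnesol replicate 1.

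Timm22, the carrier translocase, was at 96.7, 92.9 and 126 CPM in farnesol and 150.03, 89.2 and 96.5 CPM in vehicle libraries. Vehicle replicate 1 alone lay above farnesol replicate 3, and the log2 fold change of −0.09 (SE 0.19) was 0.18 without it. Timmdc1, an assembly factor of complex I that resembles the Timm17 family, was at 35.9, 25.2 and 30.7 CPM in farnesol and 32.5, 27.5 and 21.6 CPM in vehicle libraries (0.17, SE 0.21).

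The 7 matrix genes had 5 higher and 2 lower members and a median log2 fold change of 0.06, which ran from −0.01 to 0.11 with each library left out. Hspa9, the matrix Hsp70 that drives the import motor, stood at 201, 193 and 216 CPM in farnesol libraries and 181, 197 and 240 CPM in vehicle libraries. The vehicle libraries covered the whole range of the farnesol libraries, with a fold of 0.987 (0.794 to 1.23). Hspd1, the chaperonin Hsp60 (chromosome 1, 55077833 to 55088243), was at 83.0, 75.2 and 106 CPM in farnesol and 78.7, 88.2 and 88.8 CPM in vehicle libraries, a fold of 1.03 (0.815 to 1.31). Hspe1, its lid Hsp10 (chromosome 1, 55088148 to 55091317), was at 45.4, 44.1 and 47.3 CPM in farnesol and 43.1, 39.0 and 48.8 CPM in vehicle libraries, a fold of 1.05 (0.817 to 1.34). GENCODE lists pseudogenes of Hspa9, Hspd1 and Hspe1, so reads of these 3 genes may be shared with copies and their counts are uncertain to that extent. Whether other import genes have such copies is not given here, so their counts may be uncertain in the same way.

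Hspd1 and Hspe1 lie head to head with 96 bases of annotated overlap and are known to share a promoter. The log2 ratio of their counts, Hspe1 over Hspd1, was −0.87, −0.77 and −1.17 in farnesol libraries and −0.87, −1.18 and −0.87 in vehicle libraries (exact two-sided permutation p = 0.7, adjusted 0.9; the smallest p allowed is 0.1). Neither the chaperonin pair nor the ratio between them separated the groups. The window is shown because it carries motifs of the heat shock element, the site of the factors known to induce this pair under heat stress. It is the RefSeq sequence (GRCm38.p6, plus strand, chr1:55087898-55088197), from 250 bases before to 50 bases after the start of Hspe1, with capitals for the motifs found.
Hspe1: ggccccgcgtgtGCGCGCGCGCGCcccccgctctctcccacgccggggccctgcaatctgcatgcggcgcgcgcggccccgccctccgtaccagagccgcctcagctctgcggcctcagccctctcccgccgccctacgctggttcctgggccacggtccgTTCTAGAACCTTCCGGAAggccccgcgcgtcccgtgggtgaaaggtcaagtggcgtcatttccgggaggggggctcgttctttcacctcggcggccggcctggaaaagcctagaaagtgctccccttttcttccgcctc
The capitals nearest the gene hold 3 overlapping heat shock motifs, 2 of the form TTCNNGAA, which begin 89 and 79 bases before the start, and 1 of the form GAANNTTC, which begins 84 bases before it. The capitals at the far end are 2 overlapping matches to an NRF1-like core (GCGC, any 2 bases, GCGC), within a run of alternating G and C. Both strands were searched.

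The NRF1-like core also stood at the gene starts of Tomm20 and Timm8b, which are both among the 5 genes with separate groups, and their windows are shown for that reason. Of the other 3 such genes, Tomm34 and Timm23 had windows without the core and Tomm7 had no window. Hspd1 and Hspe1, which also held the core, had folds of 1.03 and 1.05 with overlapping groups. NRF1 is a factor of nuclear genes for mitochondrial proteins and is coactivated by PGC-1α. Binding of NRF1 and its part in these values were not tested. The Tomm20 window is chr8:126945872-126946171 on the minus strand and the Timm8b window chr9:50603651-50603950 on the plus strand, both from RefSeq (GRCm38.p6), with motif matches in capitals.
Tomm20: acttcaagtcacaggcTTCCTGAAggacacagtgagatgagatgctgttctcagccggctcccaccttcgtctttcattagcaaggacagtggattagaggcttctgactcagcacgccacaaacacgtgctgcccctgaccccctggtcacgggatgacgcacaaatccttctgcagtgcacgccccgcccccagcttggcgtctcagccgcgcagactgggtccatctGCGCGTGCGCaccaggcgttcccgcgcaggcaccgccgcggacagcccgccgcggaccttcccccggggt
Timm8b: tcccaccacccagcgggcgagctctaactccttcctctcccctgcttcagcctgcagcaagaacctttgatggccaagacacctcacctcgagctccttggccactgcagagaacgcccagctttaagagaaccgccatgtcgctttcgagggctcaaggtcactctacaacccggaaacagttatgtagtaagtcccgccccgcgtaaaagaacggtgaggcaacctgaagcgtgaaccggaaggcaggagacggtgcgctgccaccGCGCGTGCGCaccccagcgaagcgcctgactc
The same 10 letters, GCGCGTGCGC, begin 20 bases before the start of Tomm20 and at base 19 of Timm8b. The first capitals of Tomm20 are a TTCNNGAA match that begins 234 bases before the start. Of the 33 import genes 29 had a window, and 4 of these 29 held the NRF1-like core (Hspd1, Hspe1, Timm8b and Tomm20), where 6.997% of the 27025 genes with a window did. TTCNNGAA was in 10 of the 29 and in 9.60% of all genes, and GAANNTTC in 3 of the 29 and in 9.04% of all genes. The head-to-head genes Hspd1 and Hspe1 enter each of these counts as 2 genes. Whether their windows hold the same sites was not tested. Matches describe letters only, and the 2 heat shock forms overlap each other in the Hspe1 window.

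Of the other matrix genes, Pmpcb, the catalytic subunit of the processing peptidase, was at 49.0, 55.1 and 48.3 CPM in farnesol and 21.8, 52.9 and 56.4 CPM in vehicle libraries. Vehicle replicate 1 was far below the other 5 libraries, and the log2 fold change of 0.22 (SE 0.28) turned to −0.10 without it. Its partner Pmpca was at 36.5, 37.8 and 31.4 CPM in farnesol and 25.5, 34.4 and 34.5 CPM in vehicle libraries (0.16, SE 0.19), with the lowest value in that library too. The protease Lonp1 was at 55.9, 42.7 and 59.7 CPM in farnesol and 51.8, 54.3 and 55.3 CPM in vehicle libraries (−0.03, SE 0.17). Clpp, the proteolytic chamber that works with Clpx, was at 27.3, 24.7 and 31.3 CPM in farnesol and 28.1, 24.7 and 20.2 CPM in vehicle libraries (0.19, SE 0.21). Each of these 4 genes overlapped between the groups.

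**Figure D3:**
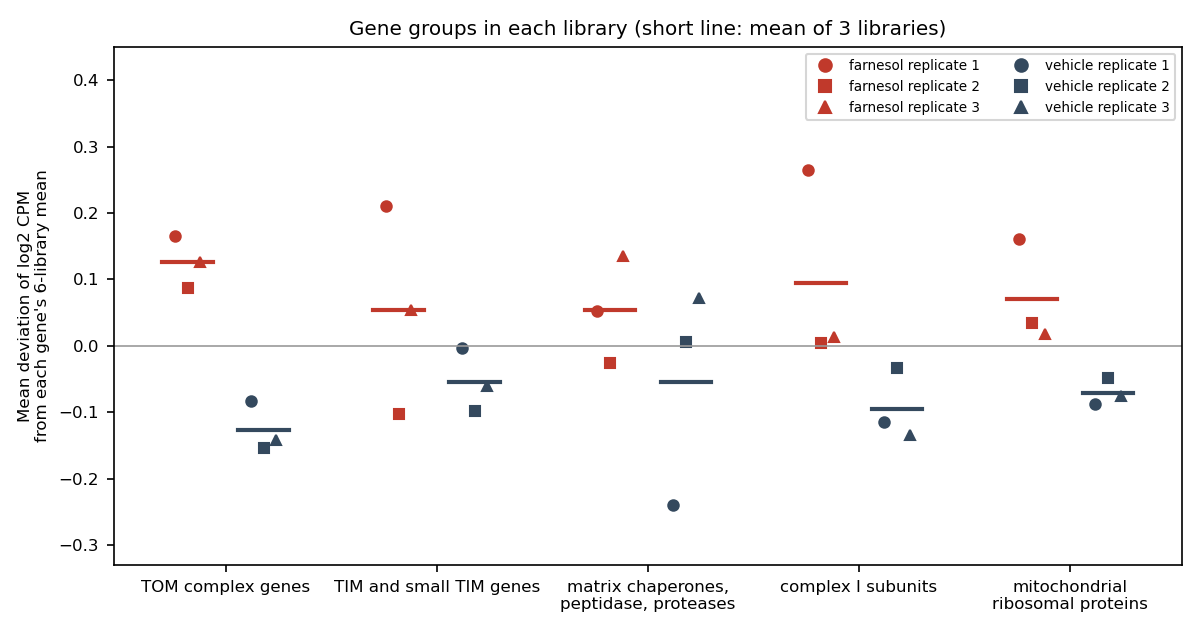
Mean deviation of log2 CPM from each gene's 6-library mean, for 3 layers of the import route and for 2 further mitochondrial gene groups, in each library; red marks are farnesol, dark marks vehicle, short lines the mean of 3 libraries. All farnesol marks lie above all vehicle marks for the 8 TOM complex genes, the complex I subunits and the mitochondrial ribosomal proteins. The TIM genes and the matrix genes overlap. Farnesol replicate 1 stands highest in the TOM complex genes, the TIM genes, the complex I subunits and the mitochondrial ribosomal proteins.

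The precision of the fit bounds these values. In 27 of the 31 genes the 95% interval of the fold excluded a 2-fold difference in either direction; the other 4 were Tomm20l, Tomm34, Timm21 and Timm50. Differences between the layers (TOM against TIM or matrix genes) were not tested. Across the 31 genes the log2 fold change had a Spearman coefficient of −0.12 with transcript length, as a description over genes that share the same 6 libraries, and of −0.14 across all genes with a length.

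Other genes of the import route came from a list of 29. Of 28 tested, 16 stood higher and 12 lower, with a median log2 fold change of 0.10 and 0 past an adjusted p of 0.05 in edgeR. The median was 0.05 when vehicle replicate 3 was left out and 0.17 when vehicle replicate 1 was, the ends of its range over the 6 libraries, with 15 to 20 genes higher. Dnajc11, a J-protein tied to the inner membrane organising complex and the only one with an unadjusted p under 0.05, was at 17.3, 15.0 and 19.4 CPM in farnesol libraries, against 9.96, 13.0 and 12.6 CPM in vehicle libraries, without overlap (log2 fold change 0.54, SE 0.24). Mipep, the intermediate peptidase, was at 14.4, 16.2 and 17.3 CPM in farnesol and 9.67, 12.03 and 12.6 CPM in vehicle libraries (0.48, SE 0.25), again without overlap. Dnaja3, a matrix J-protein that works with Hspa9, had a log2 fold change of 0.34 (SE 0.19) and Mtx2, a metaxin of the outer membrane sorting complex, of 0.59 (SE 0.34). The lower members of smallest p were the protease subunit Afg3l2 (−0.19, SE 0.20), the exchange factor Grpel2 (−0.24, SE 0.33), Clpx (−0.18, SE 0.25) and the presequence-degrading Pitrm1 (−0.13, SE 0.24).

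Genes of the mitochondrial stress response, which answer failed import or misfolding, had 1 higher and 6 lower of 7 tested, with a median log2 fold change of −0.17 and 0 past an adjusted p of 0.05 in edgeR. Leaving out vehicle replicate 3 moved that median to −0.34 and leaving out farnesol replicate 3 moved it to −0.06, the ends of its range over the 6 libraries left out in turn, with 1 to 3 members higher. The median was the value of Trib3, which had 3 to 19 counts per library (SE 0.83). Asns, also among the lower members, had 6 to 32 counts (SE 0.78). With a filter of mean 5 CPM, which leaves out both, the median was −0.15. Atf5, a regulator of that response, was at 52.6, 77.9 and 61.6 CPM in farnesol and 76.1, 86.5 and 41.4 CPM in vehicle libraries, with overlapping groups. The members of smallest p were lower. Chac1, a glutathione-degrading target of Atf4, was at 33.8, 26.2 and 17.7 CPM in farnesol and 57.4, 23.1 and 76.3 CPM in vehicle libraries (log2 fold change −1.01, SE 0.44), with vehicle replicate 2 below 2 of the farnesol libraries. Cebpb, a transcription factor of stress and inflammation, was at 37.4, 42.6 and 32.8 CPM in farnesol, each below the 48.5, 47.2 and 47.7 CPM of vehicle libraries (−0.34, SE 0.18). Their unadjusted edgeR p was 0.0529 for Chac1 and 0.0615 for Cebpb. Atf4 was the member that stood higher (0.16, SE 0.15). Fgf21 and Gdf15 had too few counts to be tested.

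Other gene groups are given beside these values. Of 37 complex I subunits tested 36 stood higher (median log2 fold change 0.17) and of 77 mitochondrial ribosomal protein genes 63 did (0.13). Over all genes tested 49.1% stood higher. Every farnesol library lay above every vehicle library in 8 of the 37 and 8 of the 77, and below in 0 and 2. Over all genes tested the shares were 4.75% above and 4.07% below. In each of these groups 3 genes, all higher, had an unadjusted edgeR p under 0.05, against 3.01% of all genes. Adipocyte markers stood higher in 8 of 9 genes, with a median log2 fold change of 0.46, more than the 0.21 of the import genes. In edgeR 4 of the 9 had an unadjusted p under 0.05, against 3.01% of all genes tested, and 0 passed after adjustment. These 4 were Cidec and Plin1, proteins of the fat droplet, and the adipocyte hormones Lep and Retn, with folds of 1.84, 2.44, 2.04 and 1.83, and in each all farnesol libraries lay above all vehicle libraries. Such separation with farnesol higher was found in 4.75% of all genes tested. The mean deviation of the 9 markers was 0.62, 0.15 and 0.11 log2 units in farnesol replicates 1, 2 and 3, against −0.15, −0.48 and −0.24 in vehicle replicates 1, 2 and 3, so farnesol libraries were higher in this mean as in that of the TOM genes. Their summed level, 2036 to 2536 CPM in farnesol and 1788 to 2205 CPM in vehicle libraries, overlapped, and no marker was at 0. Most of that level in every library was Car3 alone, at 1300.5 to 2057.3 CPM in farnesol and 1315.7 to 1774.7 CPM in vehicle libraries. Which cells of the muscle the Car3 counts came from was not tested, so the sum cannot be read as adipocyte content. Erythroid markers stood higher in 5 of 6, 4 of them at an unadjusted p under 0.05 (median log2 fold change 0.49), at 5465 to 9712 CPM in farnesol and 3496 to 5675 CPM in vehicle libraries. Slow fibre markers stood higher in 7 of 7 (median log2 fold change 0.25), 1 of them (Myl2) at an unadjusted edgeR p under 0.05. They were at 1716 to 2674 CPM in farnesol and 1320 to 1924 CPM in vehicle libraries, with farnesol replicate 2 highest. Fast fibre markers stood higher in 7 of 10 (median log2 fold change 0.12), with 0 at an unadjusted edgeR p under 0.05. Vehicle replicate 3 was the lowest library in both fibre lists. Macrophage markers stood lower in 8 of 9, 1 of them (Adgre1) at an unadjusted edgeR p under 0.05, at 127 to 173 CPM in farnesol and 103 to 241 CPM in vehicle libraries. The part of these groups in the values of the import genes was not tested.

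**Figure D4:**
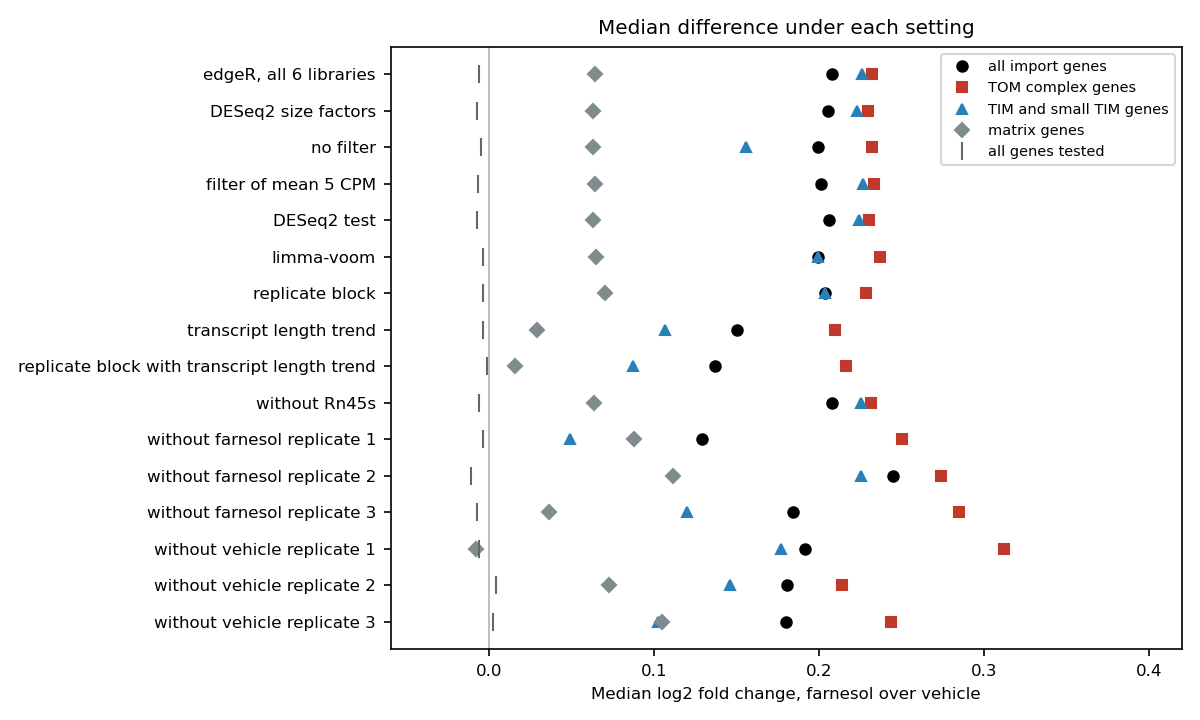
Median log2 fold change, farnesol over vehicle, of all import genes and of their 3 layers under each setting of the fit, with the median of all genes tested as a bar. The TOM complex genes stay between 0.21 and 0.31, whereas the TIM genes are at 0.05 without farnesol replicate 1.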

How the data were processed

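QuantSeq 3′ libraries (Lexogen) were made from 500 ng of total RNA, per the labels' protocols. The deposited tables, 1 for each library, give raw counts of reads by gene symbol. The submitters' processing notes name Bowtie2, bedtools and mm10. The annotation used, strand handling and removal of duplicate reads were not given in the sources used here, and 15 of the 33 import genes share exon bases with another gene in GENCODE vM21. By the kit's design a count is a read near a transcript's 3′ end; levels of different genes are not compared.

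The tables list 23282 lines under 23238 symbols; 35 symbols stood on several lines and were summed, none of them an import gene. Libraries were grouped and numbered by title. The column headers number them differently (V1, V3 and V4 for vehicle replicates 1, 2 and 3, and F2, F3 and F4 for farnesol), so replicate 1 of the replicate block joins V1 with F2, 2 different header numbers. The test was edgeR 4.0.16 in R 4.3.3 (filterByExpr, TMM, robust quasi-likelihood fit, Benjamini-Hochberg over 11674 genes, threshold 0.05). Standard errors came from the fold change and its F statistic. The fit was tested on simulated counts with 1 dispersion for all genes. Of 100 genes given a log2 change of 1 in either direction 32% passed the threshold, and of 100 given 2, 94% did. There were 6 false calls. Differences of 2-fold can thus go uncalled with 3 libraries per group. DESeq2 1.42.0 and limma 3.58.1 were alternatives. A count of 0 allows 3 counts (0.236 to 0.303 CPM), for counting error only. Gene positions are RefSeq, GRCm38.p6. Ratios of paralogs were compared by exact permutation.

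The import genes, lists and tests were chosen with earlier results of these data known. Values in every library were given by rule for genes with an unadjusted p under 0.05, the 4 of smallest p per direction and 11 core genes; further genes were described after their values were seen. Of 33 import genes 29 matched a promoter; the planned protein comparison was not run.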

Additional observations from a re-analysis of the deposited data

How the results depend on the processing

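No import gene passed an adjusted p of 0.05 under any of the 15 alternatives run. The count over all genes was 13 without the filter and 0 to 3 with a library left out. The number of import genes at an unadjusted p under 0.05 was 1 with the DESeq2 test, limma-voom, the length trend, and the length trend with the replicate block, and 0 to 3 with a library left out; it was 0 without vehicle replicate 1. The median of the import genes was 0.14 with the replicate block and length trend together and 0.13 (without farnesol replicate 1) to 0.24 with a library left out, and 23 to 26 were higher. Replicate numbers did not pair the libraries (correlations of deviations 0.04, 0.06 and −0.02); with the replicate block the median was 0.20 and 25 were higher. Hspe1 turned to −0.0256 with the length trend and −0.0207 with the block added, and Timm17a to −0.000698 in limma-voom. With a library left out, log2 fold changes that changed sign ran from −0.10 to 0.10 (Hspa9), −0.11 to 0.15 (Hspd1), −0.0102 to 0.152 (Hspe1), −0.13 to 0.10 (Lonp1), −0.10 to 0.45 (Pmpcb), −0.0286 to 0.437 (Timm10), −0.0830 to 0.129 (Timm17a), −0.171 to 0.0719 (Timm17b), −0.24 to 0.18 (Timm22), −0.300 to 0.0547 (Timm8a1) and −0.00944 to 0.365 (Tomm40). Genes that kept their sign came as near 0 as 0.0115 (Timm13), 0.0281 (Timm21), 0.0290 (Timmdc1), 0.0328 (Pmpca), 0.0432 (Tomm40l), 0.0723 (Clpp), 0.12 (Tomm5), 0.12 (Tomm6), 0.13 (Timm10b) and 0.18 (Timm44), besides those whose values stand above. Differences in ratios ran from −2.24 to 3.83 points (Tomm40l), −4.87 to 2.15 points (Timm17b), −2.11 to −0.81 points (Timm8a1) and −0.0681 to 0.151 log2 units (Hspe1 over Hspd1). The cause of these moves was not tested. Summaries of the 3 layers were added after the data were seen; among stress genes 3 stood higher without the filter and also without farnesol replicate 1, farnesol replicate 3 or vehicle replicate 2, and the TIM median was 0.09 with the block and length trend. Depth and 3 libraries per group limit each gene: the median half-width of the import genes' 95% intervals was 0.42 log2 units.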
